A study of Rattus norvegicus with 2 samples.

Results

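F13a1-carrying microglia were the cells of a microglial gate in which at least 1 transcript of F13a1 was counted. F13a1 is the gene of the catalytic A subunit of factor XIII, a coagulation transglutaminase that cross-links fibrin and other extracellular proteins. The rule required at least 200 genes per cell and at most 20% of transcripts from mitochondrially encoded genes. C1qa, C1qb and C1qc together had to reach 0.8% of a cell's unique molecular identifiers (UMIs, each standing for 1 captured transcript). The border macrophage genes Mrc1, Pf4, Ms4a7 and Stab1 together had to stay under 0.15%, with no UMI of Ms4a7 or Stab1. Of 12670 barcodes in both libraries, 631 were members, selected on their measured F13a1, C1q, border gene and mitochondrial UMIs. They comprised 467 of 4328 barcodes of the dexamethasone library and 164 of 8342 barcodes of the control library.

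Microglia had been isolated by flow cytometry from rat hippocampus at gestational day 20 and profiled by droplet single-cell RNA sequencing. One library was made from embryos with prenatal exposure to the synthetic glucocorticoid dexamethasone, the other from control embryos. Each was a pool of 7 males, and neither strain, dose nor the days of exposure are given in the sources used here. With 1 library per group no test was possible, and exposure cannot be told apart from any other difference between these libraries. The libraries shared 5 barcodes, none of them a carrier.

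Microglia are the resident macrophages of the brain parenchyma and arise from yolk sac progenitors. Border macrophages sit in the meninges, the perivascular spaces and the choroid plexus, and are marked by Mrc1, Pf4, Ms4a7, Stab1, Lyve1 and Cd163. F13a1 is a known transcript of border macrophages and of several other myeloid cells, including monocytes and megakaryocytes, while adult microglia carry little of it. In the embryo, microglia divide rapidly and acquire their adult transcript profile step by step.

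Among all gated cells, 313 of 2485 dexamethasone cells carried F13a1 after every cell had been thinned to 4100 UMIs, a share of 12.6% with an exact 95% binomial interval of 11.3 to 14.0%. The control share was 78 of 4678 cells, or 1.67% with an interval of 1.32 to 2.08%. The difference was 10.9 percentage points, with bounds of 9.24 and 12.6 points. Thinning left out 145 dexamethasone and 494 control cells that were shallower, and the shares without thinning were 17.8% in the dexamethasone and 3.17% in the control library. The F13a1 level over all gated cells was 71.0 CPM (counts scaled to a total of 1000000 UMIs; exact Poisson interval 67.8 to 74.4) in the dexamethasone library, against 9.07 CPM (8.21 to 9.99) in the control library. That is a log2 ratio of 2.97 (interval 2.81 to 3.13). All intervals are at the 95% level and cover counting error only. F13a1 chose these cells, so its values describe the members and test nothing.

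Free RNA can place a UMI in a cell that does not express a gene, so the same shares were read in cells expected to lack F13a1. Among thinned cells rich in neuronal transcripts, F13a1 was in 0 of 44 cells in the dexamethasone library (exact upper bound 8.04%) and in 1 of 108 cells in the control library (0.926%, interval 0.0234 to 5.05%). Their median depth before thinning was 4949 UMIs in dexamethasone cells and 1578 UMIs in control cells. Among thinned globin-rich cells it was in 0 of 93 dexamethasone cells (upper bound 3.89%) and 0 of 126 control cells (upper bound 2.89%), with medians before thinning of 18127 and 21479 UMIs. The share in gated dexamethasone cells lay above all of these upper bounds. The thinned share in gated control cells lay within the intervals of both kinds of background cells of that library. By level, gated control cells at 9.07 CPM stood above the globin-rich cells of their library, at 0.383 CPM (interval 0.00969 to 2.13), and within the interval of its cells rich in neuronal transcripts, at 4.65 CPM (1.70 to 10.1). Carriers with a single UMI were not set against background by themselves.

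The carriers of the 2 libraries differed in how much F13a1 a cell held. In the dexamethasone library 211 carriers (45.2%) had a single F13a1 UMI, 136 had 2 to 4, 78 had 5 to 9 and 42 had 10 or more. Of the control carriers 134 (81.7%) had a single UMI, 19 had 2 to 4, 5 had 5 to 9 and 6 had 10 or more. The median carrier held 2 UMIs in the dexamethasone and 1 in the control library, and the highest cell held 46 UMIs in the dexamethasone and 62 in the control library. Cells with 5 or more UMIs made up 4.56% of gated cells in the dexamethasone library (interval 3.80 to 5.43%), against 0.213% in the control library (0.106 to 0.380%). The 5 highest cells held 9.53% of the F13a1 UMIs of dexamethasone carriers and 46.6% of those of control carriers, so the control level rests on a handful of cells. Among carriers alone, the level was 333.5 CPM in the dexamethasone and 238.2 CPM in the control library.

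**Figure D1:**
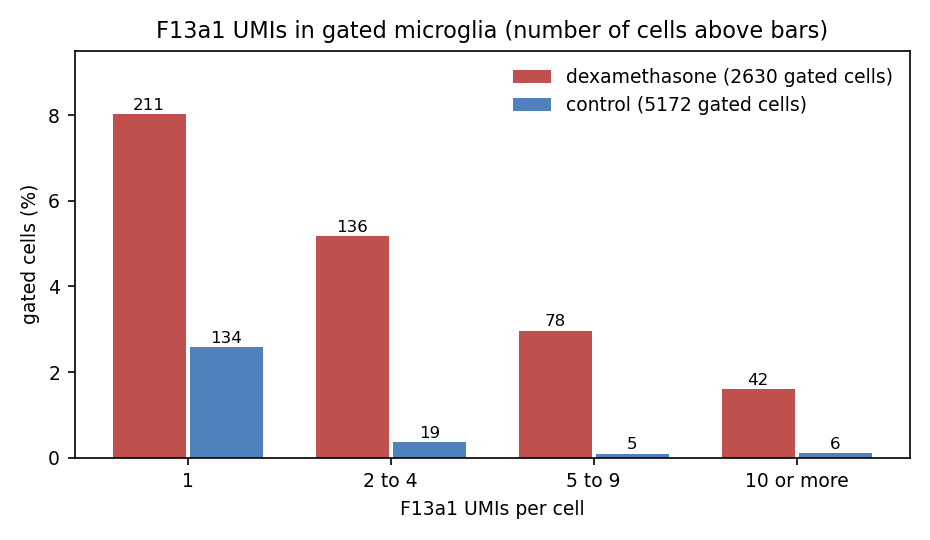
Share of gated microglia (per cent, vertical axis) by number of F13a1 UMIs per cell, for the dexamethasone library (red, 2630 gated cells) and the control library (blue, 5172 gated cells), with the number of cells above each bar. Every class with F13a1 was a larger share in the dexamethasone library, and 134 of the 164 control carriers held a single UMI.

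The carriers' share grew along the gate that separates microglia from border macrophages. In the dexamethasone library, F13a1 was carried by 5.86% of gated cells with 0 UMIs of the 4 border genes, 18.2% of those with up to 0.05%, 32.6% of those from 0.05 to 0.10% and 40.8% of those from 0.10 to 0.15%. The control shares in the same order were 1.58%, 2.97%, 5.67% and 9.66%. Just inside the gate, between 0.10 and 0.15%, F13a1 stood at 207.9 CPM in the dexamethasone and 85.4 CPM in the control library. Just outside it, between 0.15 and 0.25%, it stood at 681.4 and 260.5 CPM, and 66.7% of dexamethasone and 28.5% of control cells carried it. Cells set aside only for a Ms4a7 or Stab1 UMI carried it in 36.9% of cases in the dexamethasone and 7.60% in the control library. As a difference in CPM, the step at the threshold was larger than any step between neighbouring bands inside the gate in both libraries. As a ratio, it was the largest step in neither library. In the dexamethasone library the rise from 0 UMIs to the band up to 0.05% was a larger ratio. In the control library the rises into the bands from 0.05 to 0.10% and from 0.10 to 0.15% were larger ratios. The remaining inner rises were smaller ratios than the step at the threshold. The outer band also admits cells with Ms4a7 or Stab1 UMIs. At the C1q edge the shares were closer: with 0.8 to 1.1% C1q, 18.6% of gated dexamethasone cells and 3.25% of gated control cells were carriers, and just outside it, with 0.5 to 0.8%, 22.6% and 3.26% carried F13a1. The dexamethasone F13a1 level was 39.8 CPM just inside that edge, 107.6 CPM just outside it and 72.1 CPM at 1.1% C1q or more, and the control level was 7.88, 6.79 and 9.21 CPM in the same bands.

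Requiring 0 UMIs of all 4 border genes narrowed the difference between libraries without ending it. The thinned share was then 4.62% in the dexamethasone and 0.900% in the control library, and the log2 ratio of the F13a1 level was 2.31. Only 43 dexamethasone and 26 control carriers met that stricter gate.

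Border macrophages were taken as cells with C1q in which the 4 border genes reached 0.25% of UMIs and Ms4a7 or Stab1 was counted, 199 cells in the dexamethasone and 448 in the control library. That threshold was chosen after the data were seen. Their F13a1 level was 1228 CPM in the dexamethasone and 1045 CPM in the control library, a log2 ratio of 0.23 (interval 0.16 to 0.31). Their thinned share with F13a1 was 81.3% in the dexamethasone and 58.9% in the control library. The F13a1 level of gated cells was 5.78% of the border macrophage level in the dexamethasone and 0.868% in the control library. For Mrc1, the mannose receptor, that percentage was 7.72% in the dexamethasone and 5.61% in the control library, and for Colec12, a scavenger receptor with a lectin domain, 2.91% and 2.45%. Cd163, the haemoglobin scavenger receptor, stood at 0.446% in the dexamethasone and 0.275% in the control library. Clec10a, another lectin receptor, stood at 1.40% in the dexamethasone and 0.505% in the control library.

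For every carrier, 2 gated cells of the same library without an F13a1 UMI and with the nearest UMI count were set beside it, giving 934 dexamethasone and 328 control cells. Carriers and matched cells had the same median depth, 10169 UMIs for both in the dexamethasone and 9946 against 9944.5 UMIs in the control library. All gated cells without F13a1 were shallower, with medians of 8429 and 7653 UMIs. Matched cells include cells whose F13a1 transcripts were missed, and doublets were not removed. Mitochondrial UMIs made up 3.09% in carriers and 3.05% in matched cells of the dexamethasone library, and 6.05% and 5.82% in the control library. UMIs of ribosomal protein genes were 17.7% in carriers and 16.2% in matched cells of the dexamethasone library, and 15.6% and 14.6% in the control library.

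Among microglial markers, Csf1r, Cx3cr1 and P2ry12 were near the level of matched cells or a little above it, and Sall1 and Tmem119 were lower. Csf1r, the receptor for colony-stimulating factor 1, stood at 1665 CPM in carriers and 1545 CPM in matched cells of the dexamethasone library, and at 1580 and 1451 CPM in the control library. The fractalkine receptor gene Cx3cr1 stood at 278.1 CPM in carriers and 272.0 CPM in matched cells of the dexamethasone library, and at 349.7 and 308.5 CPM in the control library. P2ry12, a purinergic receptor of microglia, stood at 164.0 CPM in carriers and 159.5 CPM in matched cells of the dexamethasone library, against 89.7 CPM in border macrophages. Its level in the control library was 210.9 CPM in carriers, 187.1 CPM in matched cells and 83.2 CPM in border macrophages. Sall1, a transcription factor of microglia, stood at 165.1 CPM in carriers, 208.4 CPM in matched cells and 36.8 CPM in border macrophages of the dexamethasone library, a log2 ratio of carriers over matched cells of -0.34 (interval -0.45 to -0.22). Its control levels were 165.6, 180.4 and 29.9 CPM in those cells, a log2 ratio of -0.12 (-0.33 to 0.08). The carriers lay on the microglial side of border macrophages for P2ry12 and Sall1 in both libraries. Tmem119 stood at 58.6 CPM in carriers and 65.9 CPM in matched cells of the dexamethasone library, and at 60.4 and 82.5 CPM in the control library. Siglech, also fixed as a microglial marker, had no UMI in carriers or matched cells of either library.

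Of 2861 genes with at least 50 CPM in carriers or matched cells of the dexamethasone library, 38 (1.33%) were higher by over 1.5-fold in carriers and 53 (1.85%) were lower. Of 2947 such genes in the control library, 25 (0.848%) were higher and 32 (1.09%) lower. The median log2 ratio over all these genes was 0.03 in the dexamethasone and 0.02 in the control library, and 58.1% and 53.1% of them were higher in carriers by any amount. Among 2743 genes measured in both libraries, 12 (0.437%) were higher past that fold in both and 26 (0.948%) lower in both. Across these genes the log2 ratios of the libraries, which share no cell, had a Pearson r of 0.58 and a Spearman rho of 0.50, given as a description, since the same gate and the same measured transcripts underlie both. In both libraries 1082 of them were higher and 806 lower, and 855 had opposite directions. Carriers and matched cells were thus close for most genes, and the differences below concern a small set.

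Igfbp4, which encodes a binding protein of insulin-like growth factors, was higher in carriers of both libraries. It stood at 116.9 CPM in carriers and 22.6 CPM in matched cells of the dexamethasone library, a log2 ratio of 2.37 (interval 2.16 to 2.60), and was counted in 37.0% of carriers and 11.6% of matched cells. Control carriers held 154.0 CPM and their matched cells 68.9 CPM, a log2 ratio of 1.16 (0.90 to 1.42), and 43.9% of those carriers and 27.1% of those matched cells had a UMI. Border macrophages held 231.1 CPM in the dexamethasone and 376.8 CPM in the control library, so the carriers stood between. Igfbp4 is also a member of the border macrophage and progenitor lists. Tagln2, an actin-binding protein, stood at 149.8 CPM in carriers and 77.3 CPM in matched cells of the dexamethasone library, and at 165.6 and 70.3 CPM in the control library. S100a10, the partner of annexin A2, stood at 60.4 CPM in carriers and 28.6 CPM in matched cells of the dexamethasone library, and at 59.8 and 15.1 CPM in the control library. In the control library the 5 highest carriers held 34.0% of the Tagln2 UMIs and 50.5% of the S100a10 UMIs. The dexamethasone values were 8.68% and 25.2%. Anxa2 itself showed the same direction, with log2 ratios of 0.75 (0.53 to 0.97) in the dexamethasone and 1.0 (0.54 to 1.46) in the control library. Qprt, an enzyme of NAD synthesis, the scaffold protein gene Iqgap1, Gas7 and Dmac1, a complex I assembly factor, had log2 ratios between 0.65 and 1.0 in both libraries. Each of them was counted in more carriers than matched cells in both libraries.

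Cd74, the invariant chain of class II antigen presentation, had the largest ratio of the 12 genes named as higher, and it came from few cells. It stood at 70.6 CPM in carriers and 6.19 CPM in matched cells of the dexamethasone library, and at 126.1 and 3.20 CPM in the control library. The 5 highest carriers held 97.6% of the Cd74 UMIs in the dexamethasone and 97.2% in the control library. Cells with at least 5 Cd74 UMIs numbered 5 of 467 carriers (1.07%) and 2 of 934 matched cells (0.214%) in the dexamethasone library, and 3 of 164 carriers (1.83%) and 0 of 328 matched cells (upper bound 1.12%) in the control library. Without those cells, a comparison chosen after the data were seen, the log2 ratio of Cd74 was -0.25 in the dexamethasone and 1.0 in the control library. The class II genes RT1-Da and RT1-Db1, which have near-identical relatives that could share reads, were in few cells too. RT1-Da was counted in 1.93% of carriers and 0.642% of matched cells of the dexamethasone library, and in 3.05% and 1.22% of those of the control library.

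**Figure D2:**
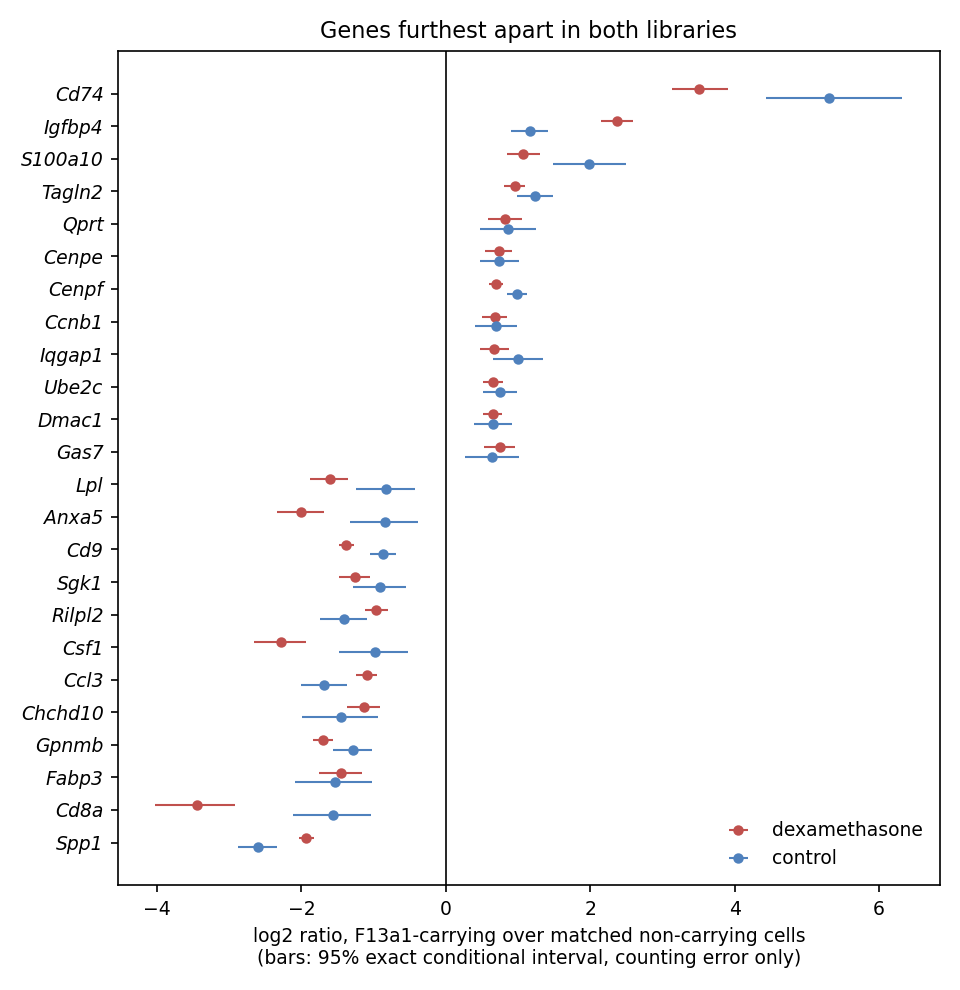
Log2 ratio of F13a1-carrying over matched non-carrying cells (horizontal axis) for the 12 highest and 12 lowest genes that kept 1 direction in both libraries, with dexamethasone in red and control in blue and bars for the 95% counting interval. Igfbp4 stood at 2.37 in the dexamethasone and 1.16 in the control library, Spp1 at -1.93 and -2.61, and the Cd74 points rest on a few cells.

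Genes known from microglia that gather along developing axon tracts were among the lowest in carriers. Spp1, which encodes the secreted phosphoprotein osteopontin, stood at 157.3 CPM in carriers and 600.2 CPM in matched cells of the dexamethasone library, a log2 ratio of -1.93 (interval -2.04 to -1.83). Control carriers held 72.6 CPM and their matched cells 442.8 CPM, a log2 ratio of -2.61 (-2.88 to -2.34). Spp1 was concentrated in few cells, and 5 carriers held 70.3% of its UMIs in the dexamethasone and 86.4% in the control library. The tetraspanin gene Cd9 was broadly counted, in 61.2% of carriers and 75.9% of matched cells of the dexamethasone library and in 55.5% and 69.2% of those of the control library. Its level was 184.0 CPM in carriers and 478.0 CPM in matched cells of the dexamethasone library, and 188.2 and 345.2 CPM in the control library. Gpnmb, a transmembrane glycoprotein of phagocytic macrophages, stood at 89.4 CPM in carriers and 291.0 CPM in matched cells of the dexamethasone library, and at 80.2 and 196.1 CPM in the control library.

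The other low genes shared that direction. Lpl, lipoprotein lipase, had log2 ratios of -1.61 in the dexamethasone and -0.83 in the control library, and the fatty acid binding protein gene Fabp3 -1.45 and -1.54. Csf1, a growth factor for macrophages, had log2 ratios of -2.29 in the dexamethasone and -0.99 in the control library. The chemokine gene Ccl3 had ratios of -1.09 and -1.68, and Sgk1, a kinase induced by serum and glucocorticoids, -1.26 and -0.91, in the same order. Cd8a, a T cell coreceptor chain that rat macrophages can also carry, stood at 5.58 CPM in carriers and 60.6 CPM in matched cells of the dexamethasone library, and at 20.3 and 59.8 CPM in the control library. Anxa5, Rilpl2 and Chchd10 were lower in carriers of both libraries as well, with log2 ratios between -2.01 and -0.85.

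The axon-tract list as a whole was lower in carriers, with 20 of its 24 measured members lower in the dexamethasone library and 13 of them past 1.5-fold. In the control library 16 of 20 were lower and 11 of them past 1.5-fold. The median log2 ratio of its members was -0.75 in the dexamethasone and -0.62 in the control library, beside 0.03 and 0.02 over all genes, and 16 of the 20 members measured in both were lower in both. Over all genes, 1.85% in the dexamethasone and 1.09% in the control library were lower past 1.5-fold, and 29.4% were lower in both. The summed level of the list was 12825 CPM in carriers and 18448 CPM in matched cells of the dexamethasone library, a log2 ratio of -0.52 (interval -0.54 to -0.51). For the control library it was 14919 CPM in carriers and 19125 CPM in matched cells, a log2 ratio of -0.36 (-0.38 to -0.34). Cd63, a tetraspanin of late endosomes, stood at 1068 CPM in carriers and 1856 CPM in matched cells of the dexamethasone library, and at 1186 and 1827 CPM in the control library. The chemokine gene Ccl4 stood at 28.8 CPM in carriers and 79.4 CPM in matched cells of the dexamethasone library, and at 6.97 and 36.6 CPM in the control library. Among the few carriers with 0 border gene UMIs the summed ratio was nearer to 0, at -0.21 in the dexamethasone and -0.13 in the control library, and there the log2 ratio of Spp1 in the control library was 0.63.

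Lysosomal and glycolytic genes leaned the same way by smaller amounts. The counts of list members here stand beside 1199 of 2861 genes lower in carriers of the dexamethasone and 1382 of 2947 in those of the control library. Of 29 lysosome and phagocytosis genes measured, 26 were lower in carriers of the dexamethasone library and 20 in those of the control library, with median log2 ratios of -0.17 and -0.10. Ctsd, the lysosomal protease cathepsin D, stood at 501.7 CPM in carriers and 965.7 CPM in matched cells of the dexamethasone library, and at 593.1 and 910.5 CPM in the control library. Msr1, a scavenger receptor, went the other way in that list, with log2 ratios of 1.52 (1.13 to 1.92) in the dexamethasone and 2.23 (1.38 to 3.15) in the control library. Of the glycolysis genes, 16 of 20 were lower in carriers of the dexamethasone library and 12 of 18 in those of the control library, with medians of -0.31 and -0.16. Aldoa, the aldolase of muscle and many other tissues, had log2 ratios of -0.51 and -0.53.

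The homeostatic microglia list was lower in sum, and Cst3 accounted for most of the sum. Cst3, which encodes the protease inhibitor cystatin C, stood at 12475 CPM in carriers and 23985 CPM in matched cells of the dexamethasone library, against 8545 CPM in border macrophages. In the control library it stood at 19492 CPM in carriers, 27808 CPM in matched cells and 10413 CPM in border macrophages. The summed log2 ratio was -0.71 (interval -0.72 to -0.70) in the dexamethasone and -0.40 (-0.41 to -0.38) in the control library, and without Cst3 it was -0.12 and -0.05. The median member stood at -0.18 in the dexamethasone library, where 15 of 27 were lower, and at -0.05 in the control library, where 15 of 24 were lower. Over all genes, 1199 of 2861 were lower in the dexamethasone and 1382 of 2947 in the control library. Sparc, a matricellular protein, had ratios of -0.44 and -0.27 in the dexamethasone and control libraries. With 0 border gene UMIs the summed log2 ratio was -0.45 in the dexamethasone and 0.11 in the control library.

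The border macrophage genes outside the gate were mostly a little higher in carriers. Of 20 measured in each library, 15 were higher in the dexamethasone and 18 in the control library, beside 58.1% and 53.1% of all genes. The median log2 ratios were 0.20 and 0.27, and 15 were higher in both libraries, beside 39.4% of all genes. The summed level had the opposite sign, with log2 ratios of -0.16 (interval -0.17 to -0.14) in the dexamethasone and -0.03 (-0.05 to -0.01) in the control library. Apoe, the lipid carrier apolipoprotein E, made up most of that sum and stood at 8286 CPM in carriers and 10291 CPM in matched cells of the dexamethasone library, and at 9966 and 11590 CPM in the control library. Without Apoe, which is also on the axon-tract list, the summed log2 ratios were 0.16 and 0.36 in the dexamethasone and control libraries.

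Single genes show how far the carriers stood from border macrophages. Dab2, an endocytic adaptor, stood at 452.6 CPM in carriers, 302.0 CPM in matched cells and 1381 CPM in border macrophages of the dexamethasone library. The control levels were 544.9, 364.3 and 1821 CPM in the same order. Fcna, which encodes a ficolin, stood at 294.8 CPM in carriers, 208.0 CPM in matched cells and 787.4 CPM in border macrophages of the dexamethasone library, and at 284.1, 174.0 and 1067 CPM in the control library. Colec12 stood at 39.6 CPM in carriers, 13 CPM in matched cells and 635.4 CPM in border macrophages of the dexamethasone library, and at 66.2, 22.4 and 779.7 CPM in the control library. Each of these 3 genes lay between matched cells and border macrophages and nearer to matched cells, in both libraries. The hyaluronan receptor gene Lyve1 differed between the libraries in this respect, at 853.8 CPM in carriers and 951.0 CPM in matched cells of the dexamethasone library, and at 1479 and 1010 CPM in the control library. The Fc receptor subunit gene Fcgrt had log2 ratios of 0.16 and 0.23.

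Defining genes of mature border macrophages were rare in carriers. Cd163 was counted in 2.14% of carriers and 0.535% of matched cells of the dexamethasone library, and in 2.44% of carriers and no matched cell of the control library, against 46.2% and 52.7% of border macrophages. Clec10a was counted in 0.857% of carriers and 0.642% of matched cells of the dexamethasone library, and in 3.66% and 0.305% of those of the control library. All 13 Cd163 UMIs of control carriers were in 4 of the 11 cells with 5 or more F13a1 UMIs, and the other control carriers had none. Those 11 cells held 55.4% of the F13a1 UMIs of control carriers and 35.4% of their Tagln2 UMIs, and 1 of them held 162 of the 217 Cd74 UMIs. Tagln2 had control log2 ratios of 0.67 in carriers with 1 F13a1 UMI and 0.71 in those with 2 to 4. In the 11 cells Tagln2 stood at 796.3 CPM, against 43.4 CPM in their matched cells. S100a10 had control log2 ratios of 0.90, 1.22 and 5.78 with 1, 2 to 4 and 5 or more F13a1 UMIs. The summed border list had control ratios of -0.05, -0.13 and 0.26 in the same order. Its dexamethasone ratios were -0.17, -0.04 and -0.25. On a log scale, 17 of 19 border list genes in the dexamethasone and 15 of 20 in the control library stood nearer to the matched cells than to border macrophages. Carriers lay toward the border macrophages from the matched cells for 15 of these 19 and 17 of these 20 genes. Of 22 homeostatic genes, 13 in the dexamethasone and 20 in the control library stood nearer to the matched cells. Carriers lay toward the border macrophages for 16 and 13 of those 22. The gate genes themselves, which the rule used, were higher in carriers for Mrc1, at 295.2 CPM against 137.5 CPM in matched cells of the dexamethasone library and 338.1 against 155.4 CPM in the control library. Pf4 was near level, at 136.6 against 120.8 CPM and 120.8 against 109.8 CPM. All 4 gate genes were at 0 in 9.21% of carriers and 26.1% of matched cells of the dexamethasone library, and in 15.9% and 22.6% of those of the control library.

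**Figure D3:**
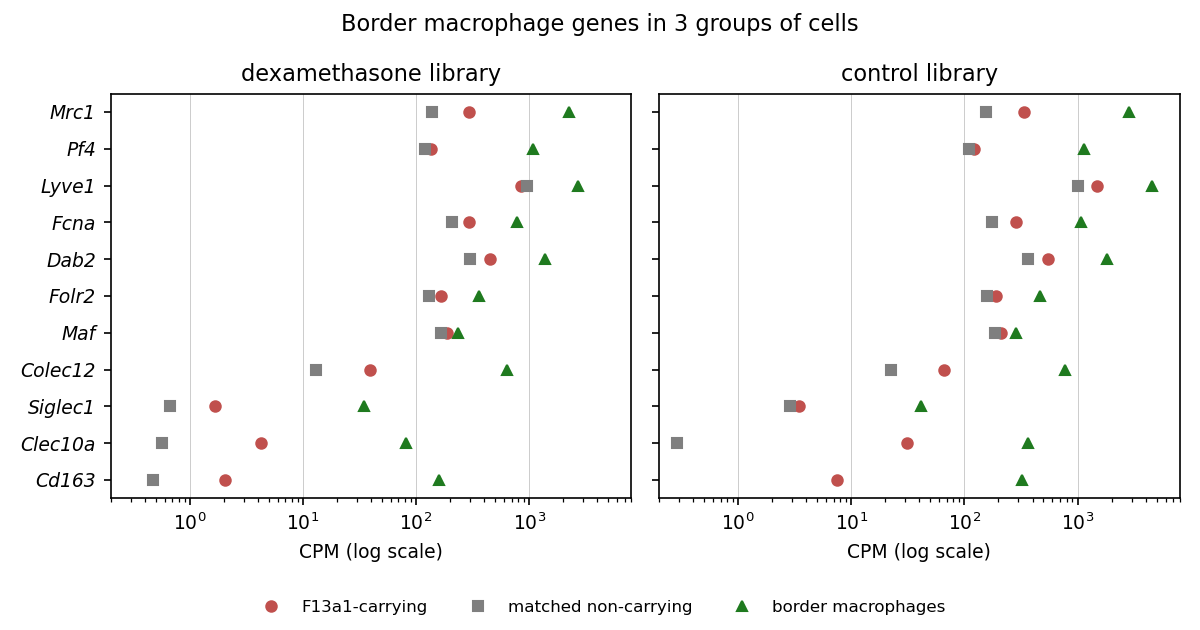
Level in CPM (horizontal log axis) of 11 border macrophage genes in F13a1-carrying cells (red circles), matched cells without F13a1 (grey squares) and border macrophages (green triangles), for the dexamethasone library on the left and the control library on the right. Dab2 stood at 452.6, 302.0 and 1381 CPM in these cells of the dexamethasone library, with carriers nearer to the matched cells. Clec10a stood at 31.4, 0.291 and 363.2 CPM in the control library, with carriers nearer to border macrophages on this axis. Cd163 was at 0 in matched control cells, which have no point.

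Cycling genes split by phase. The G2/M list was higher in carriers of both libraries, with 48 of 50 measured members higher in the dexamethasone library, 16 of them past 1.5-fold, and 40 of 49 higher in the control library, 6 of them past 1.5-fold. Over all genes, 58.1% and 53.1% were higher, and 1.33% and 0.848% past 1.5-fold. The median log2 ratio of the list was 0.52 in the dexamethasone and 0.23 in the control library. In both libraries 38 of 49 members were higher and 0 lower, beside 39.4% and 29.4% of all genes. The summed level was 4565 CPM in carriers and 3412 CPM in matched cells of the dexamethasone library, a log2 ratio of 0.42 (interval 0.40 to 0.44), and 5251 and 4276 CPM in the control library, a log2 ratio of 0.30 (0.26 to 0.33). Cenpf, a kinetochore protein, stood at 302.3 CPM in carriers and 187.3 CPM in matched cells of the dexamethasone library, and at 500.2 and 251.9 CPM in the control library. The proliferation marker Mki67 was counted in 39.0% of carriers and 28.4% of matched cells of the dexamethasone library, and in 45.1% and 32.3% of those of the control library. The cycling gene Top2a was counted in 22.1% and 17.7% of those of the dexamethasone library, and in 21.3% and 21.6% in the control library. Cdk1, another cycling gene, was counted in 22.9% and 19.0%, and in 20.1% and 19.5%, in the same order. Ccnb1 (cyclin B1), Cenpe, a kinetochore motor, Ube2c, a ubiquitin-conjugating enzyme of mitotic exit, and the spindle gene Ckap2l had log2 ratios between 0.61 and 0.91 in both libraries. Hmgb2, a chromatin protein, had ratios of 0.43 and 0.14. Among carriers with 0 border gene UMIs, 43 in the dexamethasone and 26 in the control library, the summed G2/M ratio was 0.91 and 0.67.

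S phase genes did not share that pattern. Of 43 measured in the dexamethasone library 28 were higher in carriers, with a median log2 ratio of 0.09, beside 58.1% of all genes higher there, while of 41 in the control library 7 were higher, with a median of -0.31, beside 53.1% of all genes. The summed log2 ratio was 0.09 (interval 0.05 to 0.13) in the dexamethasone and -0.20 (-0.27 to -0.13) in the control library. Pcna, the sliding clamp of DNA replication, stood at 118.0 CPM in carriers and 127.0 CPM in matched cells of the dexamethasone library, and at 97.6 and 130.7 CPM in the control library. Among carriers with 0 border gene UMIs the S phase ratio was -0.29 in the dexamethasone and -0.28 in the control library.

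In thinned cells the G2/M difference was modest. At least 14 of 4100 UMIs came from the G2/M list in 24.6% of carriers and 17.7% of matched cells of the dexamethasone library, and in 26.6% and 23.1% of those of the control library. The median number was 6 in carriers and 5 in matched cells of the dexamethasone library, and 6 and 6 in the control library. Without thinning, the 5 highest carriers held 11.5% of the G2/M UMIs of 467 dexamethasone carriers and 20.5% of those of 164 control carriers. At least 10 UMIs came from the S phase list in 21.3% of carriers and 21.3% of matched cells of the dexamethasone library, and in 15.8% and 21.2% of those of the control library. Seen from the other side, F13a1 was carried by 10.7% of gated dexamethasone cells in the lowest G2/M class and 14.6% in the highest, with intervals of 8.45 to 13.3% and 11.5 to 18.2% that overlap. The control classes ran 1.64, 1.80, 1.15, 1.29 and 2.15% with no order. F13a1 carriers were thus found in every class of cycling state in both libraries.

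**Figure D4:**
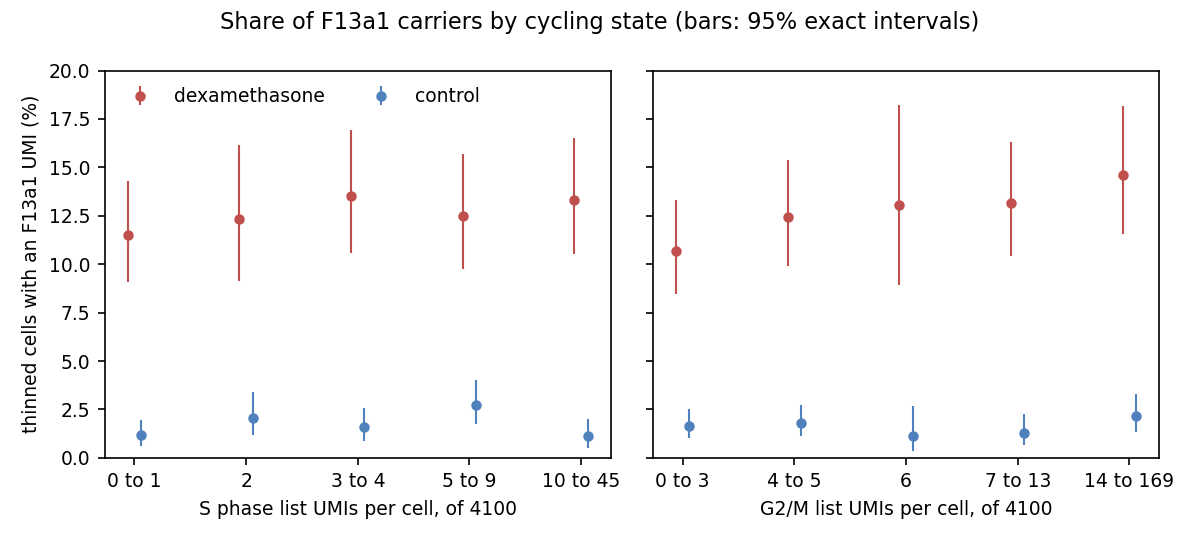
Share of thinned gated cells with an F13a1 UMI (per cent, vertical axis) by UMIs of the S phase list (left) and the G2/M list (right) among 4100 UMIs per cell, for the dexamethasone library (red) and the control library (blue), with 95% exact binomial intervals. The dexamethasone share lay between 10.7 and 14.6% in all classes and the control share between 1.1 and 2.71%.

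Several differences were larger in carriers with more F13a1 UMIs. In the dexamethasone library the homeostatic log2 ratio was -0.39 in 211 carriers with 1 UMI, -0.72 in 136 with 2 to 4 and -1.16 in 120 with 5 or more, each against its own matched cells. The same classes of the control library gave -0.32, -0.62 and -1.1, from 134, 19 and 11 carriers. The axon-tract ratio was -0.39, -0.36 and -0.89 in the dexamethasone and -0.34, -0.45 and -0.38 in the control library. Igfbp4 had log2 ratios of 1.91, 1.83 and 3.6 in the dexamethasone and 0.98, 1.36 and 2.0 in the control library. Cd9 had ratios of -0.89, -1.02 and -2.54 in the dexamethasone and -0.90, -0.65 and -0.89 in the control library. Cst3 accounted for most of the homeostatic order, with ratios of -0.52, -1.01 and -1.54 in the dexamethasone and -0.43, -0.76 and -1.42 in the control library. Without Cst3 the list had ratios of -0.06, -0.07 and -0.25 in the dexamethasone and -0.0013, -0.20 and -0.40 in the control library. Cd9 and the axon-tract list were lowest at 5 or more UMIs in the dexamethasone library. The G2/M ratio had no order, at 0.44, 0.27 and 0.53 in the dexamethasone and 0.26, 0.44 and 0.36 in the control library. Carriers with more F13a1 UMIs were also deeper, with medians of 8945, 10228.5 and 12687.5 UMIs in the dexamethasone classes, and their matched cells followed that depth. P2ry12 had ratios of 0.01, -0.06 and 0.20 in the dexamethasone library, each with an interval that holds 0, and of 0.26 (0.06 to 0.47), -0.27 (-0.91 to 0.34) and -0.59 (-1.66 to 0.39) in the control library. Tmem119 had ratios of -0.21, -0.22 and -0.04 in the dexamethasone and -0.45, -0.64 and -0.12 in the control library.

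**Figure D5:**
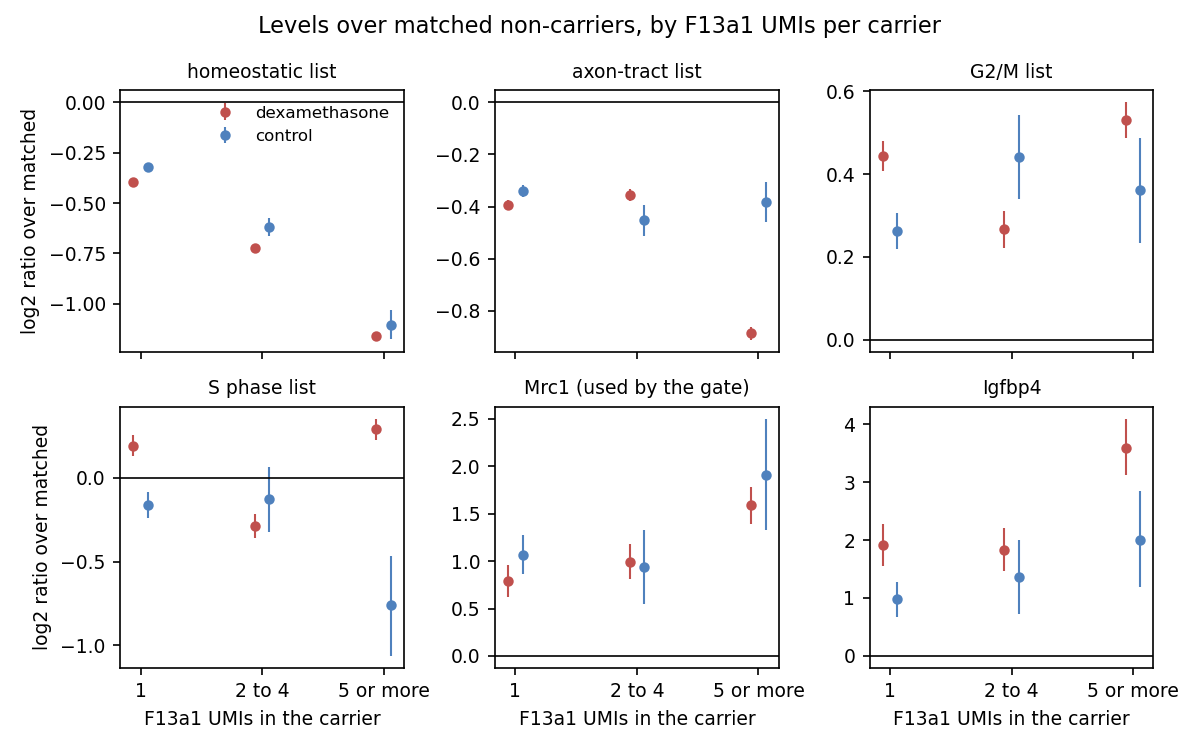
Log2 ratio of carriers over matched non-carriers (vertical axes, each with its own range) by F13a1 UMIs in the carrier, for 4 gene lists and 2 genes, with dexamethasone in red and control in blue and bars for 95% counting intervals. The homeostatic list stood at -0.39, -0.72 and -1.16 in the dexamethasone and at -0.32, -0.62 and -1.1 in the control library.

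Markers of other cell types were read in the same cells. Of 20 platelet and megakaryocyte genes, 13 had no UMI in dexamethasone carriers and 15 none in control carriers, among them Itga2b, Ppbp and Tubb1, and the summed level was 10.8 CPM in carriers and 12.5 CPM in matched cells of the dexamethasone library and 11 and 13.1 CPM in the control library. The monocyte list was higher in carriers of the dexamethasone library, at 2333 CPM against 804.4 CPM in matched cells, while in the control library it stood at 648.9 and 585.1 CPM with a median log2 ratio of -0.08. The 5 highest dexamethasone carriers held 62.7% of its UMIs, and 1 carrier had over 0.5% of UMIs from S100a8 and S100a9, the calprotectin genes of granulocytes and monocytes. Without cells rich in those genes or in globins, a comparison added after the data were seen, the dexamethasone log2 ratio of the monocyte list was 0.88 instead of 1.54. Within that list Plac8 was more broadly counted, in 67.9% of carriers and 55.4% of matched cells of the dexamethasone library, at 445.8 and 257.2 CPM, and stood at 141.2 and 148.8 CPM in the control library. The lysozyme gene Lyz2 stood at 664.9 CPM in carriers and 322.5 CPM in matched cells of the dexamethasone library, and at 367.2 and 318.7 CPM in the control library. In the dexamethasone library 5 carriers held 59.1% of its UMIs, and it was counted in 77.7% of carriers and 83.1% of matched cells. Its dexamethasone log2 ratio was -0.58 in carriers with 1 F13a1 UMI, 1.62 with 2 to 4 and 1.68 with 5 or more. In carriers with 1 F13a1 UMI the monocyte ratio was -0.05 in the dexamethasone library, and it was 2.69 with 2 to 4 UMIs and 1.13 with 5 or more. The 1 carrier rich in S100a8 and S100a9, which are on the monocyte list, held 2 F13a1 UMIs and so lies in the middle class. The granulocyte list stood at 3449 CPM in that class, against 71.0 CPM with 1 UMI and 178.9 CPM with 5 or more. The classes were not recomputed without that cell. In the dexamethasone library no list whose main interval excluded 0 changed direction without the cells rich in S100a8 and S100a9 or in globins. The mural and lymphocyte lists were not checked. No control carrier or matched cell was rich in those genes, so the control values could not change.

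Transcripts of red cells and neurons were lower in sum in carriers than in matched cells, by little for red cells in the control library. Globin-rich cells, with at least 1% of UMIs from globins, numbered 0 of 467 carriers and 4 of 934 matched cells in the dexamethasone and none of the 164 carriers or 328 matched cells in the control library. The erythroid list stood at 385.7 CPM in carriers and 2916 CPM in matched cells of the dexamethasone library, where 5 matched cells held 85.6% of its UMIs, and at 618.1 and 651.4 CPM in the control library. Its gene Hba-a1, an alpha globin, was counted in 54.6% of carriers and 54.5% of matched cells of the dexamethasone library, and in 81.7% and 80.8% of those of the control library. The neuron list stood at 8.18 CPM in carriers and 53.2 CPM in matched cells of the dexamethasone library, and at 63.9 and 115.3 CPM in the control library. In the dexamethasone library 6.64% of carriers and 7.28% of matched cells had a UMI of it, and in the control library 32.3% and 29.6%. Its sum rests on few cells, as 5 matched cells held 86.6% of its UMIs in the dexamethasone and 62.0% in the control library. Endothelial Cldn5, lymphocyte Cd3e and fibroblast Col3a1 and Dcn were at 0 in carriers of both libraries. Other endothelial genes were not: 5 of 7 measured were higher in dexamethasone carriers and 4 of 5 in control carriers, beside 58.1% and 53.1% of all genes. In the same order Egfl7 had log2 ratios of 0.73 and 0.84, Esam 0.70 and 0.24, Cdh5 0.44 and 0.45, and Eng -0.32 and -0.22. The intervals of Cdh5 in both libraries and of Esam and Eng in the control library held 0. The granulocyte list stood at 1111 CPM in carriers and 96.5 CPM in matched cells of the dexamethasone library, where 5 carriers held 94.3% of it, and at 52.9 and 52.0 CPM in the control library.

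The remaining partners of factor XIII were little counted. F13b, its B subunit, the thrombin gene F2 and the fibrinogen genes Fga, Fgb and Fgg had no UMI in carriers or matched cells of either library, nor had the tissue transglutaminase gene Tgm2. Of 43 coagulation and fibrinolysis genes, 23 had no UMI in dexamethasone carriers and 27 none in control carriers. The summed log2 ratio was 0.06 (interval -0.0020 to 0.11) in the dexamethasone and 0.12 (0.01 to 0.22) in the control library, where the median member stood at -0.03. Gas6, a ligand of TAM receptors and relative of protein S, stood at 249.7 CPM in carriers and 271.5 CPM in matched cells of the dexamethasone library, and at 271.9 and 267.9 CPM in the control library. Plau, the urokinase plasminogen activator, was lower in carriers of both libraries, with log2 ratios of -1.92 (-2.56 to -1.34) and -0.87 (-1.65 to -0.16), at 5.02 and 12.2 CPM in carriers.

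Glucocorticoid-responsive genes did not separate carriers from matched cells as a group. Of 21 measured in the dexamethasone library 9 were higher in carriers and 12 lower, and of 18 in the control library 9 were higher and 9 lower. Over all genes 58.1% and 53.1% were higher. Median log2 ratios were -0.13 in the dexamethasone and -0.04 in the control library, while the summed ratios were 0.03 and 0.02 with intervals that hold 0. Nr3c1, the glucocorticoid receptor gene, stood at 45.5 CPM in carriers and 44.0 CPM in matched cells of the dexamethasone library, and at 47.6 and 42.1 CPM in the control library. Tsc22d3, which encodes the glucocorticoid-induced leucine zipper, had log2 ratios of 0.45 (0.14 to 0.75) in the dexamethasone and 0.38 (-0.26 to 1.0) in the control library. Cdkn1a, a cell cycle inhibitor, had ratios of -1.22 and -1.50. Anxa1, annexin A1, had a ratio of 2.80 in the dexamethasone and 0.21 in the control library, although it was counted in only 7.49% of carriers and 5.89% of matched cells of the dexamethasone library.

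Set against each other, the carriers of the libraries differed in more genes than their matched cells did. Of 2948 genes with at least 50 CPM, 78 (2.65%) were higher and 68 (2.31%) lower by over 1.5-fold in dexamethasone carriers than in control carriers. Among matched cells, 50 (1.74%) of 2870 genes were higher and 45 (1.57%) lower in the dexamethasone library. Over the 2753 genes measured in both, 38 were higher and 29 lower in both comparisons, so much of the difference between libraries was common to cells with and without F13a1. The control carriers were fewer, at 164 cells, which widens the counting spread of that side.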

How the data were processed

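The deposited values are raw counts of UMIs per gene and barcode for 32623 genes, made by the authors with Cell Ranger 7.0.0 against Rnor_6.0, per the submitters' processing notes. Total counts were 42611920 UMIs in the dexamethasone and 69940778 UMIs in the control library. Coordinates are not reported, as no annotation of this assembly was at hand.

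Cells were gated by the stated rule. The members, gene lists and thresholds were chosen with earlier results of these data known. Within each group of cells the counts of a gene were added up and scaled by the group's total UMIs to CPM. Carriers were compared with 2 non-carriers per carrier of the same library, matched without replacement on UMIs (median gap 0.0755% in the dexamethasone and 0.0243% in the control library). The largest gap was 99.0% in the dexamethasone and 2.55% in the control library. No doublet caller was run, and doublets remain. Intervals at the 95% level are exact: Poisson for levels, Clopper-Pearson for shares, conditional binomial for ratios. For a difference of shares the outer bounds were combined.

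Genes were named by rule: with at least 50 CPM in a group, outside the gate and with 1 direction in both libraries, the 12 highest and 12 lowest by the smaller absolute log2 ratio, and from each list the 2 members of highest level and the 2 of largest mean ratio with at least 20 CPM. Genes named beyond the rule and the markers, among them Colec12, Fcna, Anxa2, Plau, Mki67, Tsc22d3 and Nr3c1, were chosen after their values were seen. List members with fewer than 20 UMIs over carriers and matched cells of a library were not counted as measured there. Of 663 entries in 26 lists, 26 had no unique symbol in the feature table and are not analysed here. Cells of neuronal transcripts had at least 0.5% of UMIs from the neuron list, and globin-rich background cells at least 10% from globins. Python 3.11.15, numpy 2.4.6, scipy 1.17.1, pandas 2.3.3 and matplotlib 3.10.9 were used.

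The ratio was tested on simulated data. In the simulated dexamethasone comparison of 2734 genes, intervals held the true log2 ratio for 94.2% of unchanged genes, 95.7% at 0.585 and 93.5% at 1. In the simulated control comparison of 2768 genes they held it for 95.8%, 100% and 98.1%. Those counts were drawn with Poisson error alone.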

Additional observations from a re-analysis of the deposited data

Results flagged for a closer look

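The S phase list moved in opposite directions in the libraries. Its summed log2 ratio of carriers over matched non-carriers was 0.088 in the dexamethasone and -0.20 in the control library. The difference between these values was not tested, since each library is a single pool.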

How the results depend on the processing

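No paired analysis was possible because each group has 1 library, and no replicate could be left out. Of 218 recomputed values that answer a comparison, 119 stayed within a set range of the main value, 94 moved beyond it and 5 changed sign. That range was the counting interval of the main value, or 1.5-fold either way for numbers of genes. Ratios below are log2 of carriers over matched cells unless stated. No cause of a change was tested, but the gate without border gene UMIs kept only 43 dexamethasone and 26 control carriers, and at least 2 F13a1 UMIs kept 256 and 30. A value under 20 UMIs was left out, 19 in all.

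The F13a1 share was 4.62% in the dexamethasone and 0.900% in the control library with 0 border gene UMIs, a difference of 3.72 points, and 17.8% and 3.17%, a difference of 14.6 points, without thinning. The F13a1 log2 ratio of dexamethasone over control was 2.31 with 0 border gene UMIs, 2.73 with C1q at least 1.5% and 2.80 without the top 5% of cells by UMIs.

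Higher genes in the dexamethasone library numbered 258 with 0 border gene UMIs, 21 with matching within S and G2/M classes and 2081 with no filter on low values. Lower genes there numbered 182 with 0 border gene UMIs, 83 with at least 2 F13a1 UMIs and 2805 with no filter. Control higher genes numbered 481 with 0 border gene UMIs, 38 with C1q at least 1.5% or with 1 match per carrier, 40 without the top 5%, 264 with at least 2 F13a1 UMIs, 46 when scaled without mitochondrial and ribosomal protein genes and 2112 with no filter. Lower genes there numbered 349, 19 unmatched, 11 with cycling matched, 280 with at least 2 F13a1 UMIs and 2710 with no filter.

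With 0 border gene UMIs the dexamethasone ratios were homeostatic -0.45, border list -0.076, S phase -0.29, G2/M 0.91 and axon-tract -0.21. For the control library they were homeostatic 0.11, border list -0.065, S phase -0.28, G2/M 0.67 and axon-tract -0.13. With C1q at least 1.5% they were homeostatic -0.73, border list -0.18, G2/M 0.33 and axon-tract -0.56 in the dexamethasone library, and homeostatic -0.42, border list -0.14, S phase -0.12, G2/M 0.38 and axon-tract -0.41 in the control library. Without the top 5% they were border list -0.20, S phase 0.034 and G2/M 0.37 in the dexamethasone library, and border list 0.0054 and axon-tract -0.30 in the control library. With 1 match per carrier they were homeostatic -0.72, S phase 0.16 and G2/M 0.36 in the dexamethasone library, and homeostatic -0.43, border list -0.0014, S phase -0.093 and G2/M 0.18 in the control library. Unmatched they were border list -0.22, G2/M 0.48 and axon-tract -0.50 in the dexamethasone library, and border list -0.085, S phase -0.12 and G2/M 0.46 in the control library.

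With cells also matched on cycling, which fixes the cycling lists by construction, the ratios were homeostatic -0.67, S phase -0.0074, G2/M 0.077 and axon-tract -0.45 in the dexamethasone library, and homeostatic -0.34, border list -0.0059, S phase -0.11, G2/M 0.020 and axon-tract -0.26 in the control library. With at least 2 F13a1 UMIs they were homeostatic -0.94, S phase 0.13 and axon-tract -0.62 in the dexamethasone library, and homeostatic -0.75, border list 0.058, S phase -0.46, G2/M 0.43 and axon-tract -0.42 in the control library. Scaled without mitochondrial and ribosomal protein genes they were homeostatic -0.68, border list -0.13, G2/M 0.45 and axon-tract -0.49 in the dexamethasone library, and homeostatic -0.37, border list -0.0086 and axon-tract -0.34 in the control library. As means of per-cell CPM they were homeostatic -0.65, G2/M 0.38 and axon-tract -0.47 in the dexamethasone library, and homeostatic -0.35, G2/M 0.21 and axon-tract -0.33 in the control library. Without cells rich in Cd74 they were homeostatic -0.69 and border list -0.17 in the dexamethasone library, and homeostatic -0.36 and axon-tract -0.33 in the control library. Without cells rich in S100a8 and S100a9 or globins, G2/M was 0.39 in the dexamethasone library. These last alternatives, with the one leaving out shared barcodes, were chosen after seeing the data.

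With 0 border gene UMIs the following also changed sign in the dexamethasone library: erythroid 0.021, astrocyte and glia 0.79 (0.017 unmatched), immature microglia -0.042, inflammatory 0.42, Chchd10 0.28 and Ccl3 1.16. For the control library they were monocyte -0.055, progenitor -0.22, neuron 3.44e-05, coagulation -0.081, alternative activation 0.061, antigen presentation 0.079, glycolysis 0.033, Qprt -0.58, Iqgap1 -0.26, Spp1 0.63 and Ccl3 0.70. Cd74 was -0.25 in the dexamethasone library, and the control monocyte list -0.053, without cells rich in Cd74. The control neuron list was 0.25 with C1q at least 1.5%, 0.013 with 1 match and 0.44 with at least 2 F13a1 UMIs. The control alternative activation list was 0.046 and the immature list -0.022 with cycling matched, and alternative activation was 0.019 with at least 2 F13a1 UMIs. The numbers of cells and of F13a1 UMIs limit the control side most, with 164 carriers, 134 of them on a single UMI. Median depth was similar, at 9946 UMIs in control and 10169 UMIs in dexamethasone carriers.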

Other observations

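The counts of list members below stand beside 58.1% of all genes higher in carriers of the dexamethasone and 53.1% in those of the control library. Among interferon-response genes of the dexamethasone library, 16 of 21 measured members were higher and the median log2 ratio was 0.29. In the control library 8 of 17 were higher and the median was -0.06, while the summed level had a log2 ratio of 0.13 (interval 0.04 to 0.23). Ifi47, an interferon-inducible GTPase, stood at 122.3 CPM in carriers and 89.0 CPM in matched cells of the dexamethasone library, and at 113.3 and 84.8 CPM in the control library. Bst2, which encodes tetherin, had log2 ratios of 0.24 (interval 0.16 to 0.32) in the dexamethasone and 0.34 (0.20 to 0.48) in the control library. Of the inflammatory genes 14 of 22 in the dexamethasone and 8 of 18 in the control library were higher, near the share of all genes. The dexamethasone median log2 ratio was 0.07, while the summed ratio was -0.12 (-0.16 to -0.08). Within them the lipopolysaccharide co-receptor gene Cd14 stood at 186.3 CPM in carriers and 113.2 CPM in matched cells of the dexamethasone library, and at 172.5 and 145.0 CPM in the control library.

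Adhesion and migration genes were higher in carriers for 24 of 29 members in the dexamethasone and 16 of 25 in the control library, with a median log2 ratio of 0.15 in each. Immediate early and stress genes had medians of 0.0089 and -0.12 in the dexamethasone and control libraries, antigen presentation genes -0.034 and -0.0048, immature microglia genes 0.07 and 0.12, and alternative activation genes -0.22 and 0.15. The summed alternative activation ratio of the control library was -0.09 (-0.17 to -0.02), opposite in sign to its median. Fabp5, a fatty acid binding protein of the immature list, stood at 30.7 CPM in carriers and 117.8 CPM in matched cells of the dexamethasone library, and at 47.1 and 83.7 CPM in the control library. The progenitor list stood at 126.8 CPM in carriers and 29.0 CPM in matched cells of the dexamethasone library, and at 159.2 and 77.6 CPM in the control library, and Igfbp4 made up most of it. The endothelial list stood at 147.8 CPM in carriers and 114.3 CPM in matched cells of the dexamethasone library, and at 174.3 and 144.4 CPM in the control library. The astrocyte and glia list stood at 87.7 CPM in carriers and 98.3 CPM in matched cells of the dexamethasone library, and at 69.1 and 70.3 CPM in the control library. The lymphocyte list stood at 24.9 CPM in carriers and 31.3 CPM in matched cells of the dexamethasone library, and at 46.5 and 42.7 CPM in the control library. The mural and fibroblast list stood at 0 CPM in dexamethasone carriers and 0.581 CPM in control carriers.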
